A study of Mus musculus with 12 samples.

Results

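The 10 genes described here form 5 pairs, each made of a ribosomal protein gene and a paralog of it: *Rpl3* with *Rpl3l*, *Rpl22* with *Rpl22l1*, *Rps27* with *Rps27l*, *Rpl36a* with *Rpl36al*, and *Rpl7* with *Rpl7l1*. They were taken by name from the 21669 transcript names that each count table lists, and each gene matched 1 name. The tables come from left ventricular tissue of adult mouse hearts, either wild type (WT) or lacking *Rpl3l* (Rpl3l-/-, KO), homogenised in a cycloheximide buffer. Ribosome-protected fragments (RPF, footprints) were obtained by RNase I digestion of the lysate and show where ribosomes sat on mRNA, while poly(A)-selected, strand-specific RNA libraries were made from undigested lysate. The 12 libraries fall into 4 groups of 3, RNA WT, RNA KO, RPF WT and RPF KO, and the series design calls the 3 biological replicates. How the allele was made, the strain and whether RNA and footprints of the same number share a heart are not given in the sources used here. The questions put to the data were which share each paralog holds of its pair in RNA and in footprints, and whether any pair besides *Rpl3* and *Rpl3l* differed between genotypes.

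Ribosomal proteins are encoded by single genes in most cases, but a few have a second functional gene whose product can take the same place in the ribosome. *Rpl3l* is such a gene, expressed in heart and skeletal muscle, and its product can replace the broadly expressed Rpl3 protein near the peptidyl transferase centre of the large subunit. The Rpl22 protein binds RNA outside the ribosome and is known to hold down expression of *Rpl22l1*. *Rps27l* is a known target of the tumour suppressor p53, and *Rpl36a* lies on the X chromosome while its intron-poor relative *Rpl36al* lies on an autosome. Rpl7l1 is related to Rpl7, a large-subunit protein, and is not counted among the proteins of the standard mature ribosome.

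Paralogs can be told apart by sequencing only where their mRNAs differ, so the most similar coding stretches of 30 bases in each pair are shown here, 5′ to 3′, from the GENCODE M21 transcripts (GRCm38). Capitals mark bases in which the paralog differs from the first gene of its pair.
Rpl3: acagcctttctgggttacaaggctggcatg
Rpl3l: acagccttCctgggCtacaaggctggcatg
Rpl22: ttctccaaaaggtatttgaaatatctcacc
Rpl22l1: ttctccaaaaggtatttgaaatatctTacc
Rps27: ctggtgcagagccccaattcctactttatg
Rps27l: ctggtTcagagcccAaattcTtacttCatg
Rps27rt: ctggtgcagagccccaattcctactttatg
Rpl36a: gttgagcccaactgcagatctaagaggatg
Rpl36al: gttgagcccaactgcagatcCaagaggatg
Rpl7: cccaacctgaagtcagtaaacgagctcatc
Rpl7l1: ccAaaTctgaagtcTgtCCGGgagctcatc
In their closest stretches *Rpl22l1* and *Rpl36al* each differed from their partner at 1 base, *Rpl3l* at 2, *Rps27l* at 4 and *Rpl7l1* at 7. No window of 28 bases, about the length of a footprint, was identical between a gene and its paralog in any of the 5 pairs. The longest identical run was 26 bases for *Rpl22l1*, 24 for *Rpl36al*, 22 for *Rpl3l*, and 11 for both *Rps27l* and *Rpl7l1*. Allowing 2 mismatches, 96 of the 1249 windows of *Rpl36al*, 14 of the 525 of *Rpl22l1* and 12 of the 1348 of *Rpl3l* matched the partner.

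Other listed genes, not the paralog, held the shared sequence. *Rps27rt*, shown above because its stretch is the same as that of *Rps27*, contained 314 of the 318 windows (98.7%) of the *Rps27* transcript, and all 225 windows of the *Rps27* coding sequence occurred in another listed transcript. Of the coding windows of *Rpl36a*, 212 of 291 (72.9%) occurred elsewhere. Its main match was the pseudogene *Rpl36a-ps1*, which held 308 transcript windows and had 0 counts except for 1 in an RNA WT library. For *Rpl36al*, 276 of 291 coding windows (94.9%) occurred in *Gm49383*, a listed transcript that overlaps it on chromosome 12 and had 0 counts in all 12 libraries. No coding window of the other 7 members was found in another listed transcript. Across the whole table, names at 0 in all 12 libraries made up 92.7% of the 904 names with at least 90% of their transcript windows shared and 10.3% of the 11200 names with none shared. How reads that match several transcripts were counted is not given in the sources used here. The part that shared sequence plays in the counts of *Rps27*, *Rpl36a* and *Rpl36al* was not tested.

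**Figure D1:**
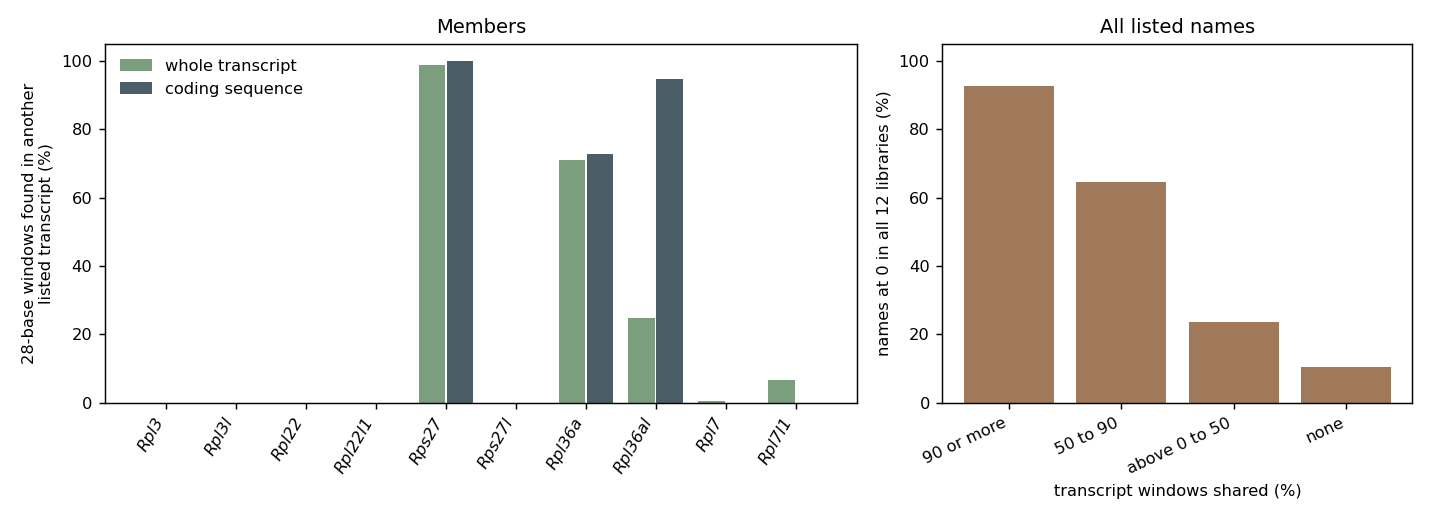
Left, percentage of the 28-base windows of each member's whole transcript and of its coding sequence that occur in another listed transcript; right, percentage of names at 0 in all 12 libraries, by the percentage of their transcript windows that are shared. *Rps27*, *Rpl36a* and *Rpl36al* stand apart with 100%, 72.9% and 94.9% of coding windows shared, and names at 0 go from 10.3% with none shared to 92.7% with at least 90% shared.

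RNA libraries held 6635242 to 8459004 counts, of which mitochondrially encoded transcripts took 49.8% to 58.2%, and RPF libraries held 3827862 to 7474602, of which those took 2.28% to 5.22%. Levels are counts scaled to a common library total (CPM) on TMM-scaled library sizes, a scaling by a trimmed mean of ratios between libraries. The floor of 3 counts lay at 0.304 to 0.449 CPM in RNA and 0.404 to 0.791 CPM in RPF. Markers of ventricular cardiomyocytes (7 genes) summed to 44391 to 60503 CPM in RNA, against 17.9 to 28.5 CPM for 6 skeletal muscle genes, and no marker was at 0 in all libraries. Atrial markers (5 genes) summed to 1681 to 2615 CPM in RNA WT and 2053 to 4136 CPM in RNA KO, and erythroid markers (5 genes) to 1928 to 4317 and 1263 to 5270 CPM. The first principal component of the RNA libraries set WT 1, WT 2 and KO 2 apart from WT 3, KO 1 and KO 3, and that of the RPF libraries set WT 1 apart from the other 5. The part of these differences in the results was not tested beyond the values given below. In bulk tissue, fewer cells of a type and less RNA per cell cannot be told apart.

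The *Rpl3* pair was the targeted one. Rpl3-201 has 10 exons on the minus strand of chr15:80077791-80083406, and Rpl3l-202 has 10 exons on the plus strand of chr17:24727820-24736143. *Rpl3l* RNA stood at 428, 354 and 349 CPM in the WT libraries and at 40.8, 46.4 and 44.7 CPM in the KO libraries. Its footprints stood at 193, 260 and 234 CPM in WT and at 8.76, 4.40 and 12.8 CPM in KO. The targeted gene was therefore lower in every KO library, yet remained above the floor in all of them. *Rpl3l* fell in both assays in edgeR's quasi-likelihood test, with log2 fold changes of -3.10 (SE 0.18, adjusted p = 8.2e-05) in RNA and -4.76 (SE 0.28, adjusted p = 2.5e-07) in RPF. It was the 1 member with an adjusted p below 0.05, in a background of 0.0119% of names in RNA and 0.00897% in RPF.

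*Rpl3* RNA was 456, 468 and 383 CPM in WT and 632, 764 and 631 CPM in KO, so the KO libraries lay above the WT libraries. *Rpl3* footprints were 68.1, 120.2 and 99.2 CPM in WT and 120.2, 196 and 124 CPM in KO. The lowest KO library, at 120.19 CPM, was barely above the highest WT library, at 120.17 CPM. The log2 fold change came to 0.63 (SE 0.18) for RNA and 0.62 (SE 0.22) for footprints. Both had an unadjusted p below 0.05 in edgeR, as did 2.54% of names in RNA and 5.96% in RPF. Neither passed after adjustment over all names (edgeR adjusted p = 0.999 and 0.834). It passed in RNA with a factor for the split of the RNA libraries (0.72, adjusted p = 0.016) and in RPF without a filter on low counts (0.63, adjusted p = 0.032), the lowest adjusted p over its alternatives in each assay. The split was read from the first principal component of the same RNA libraries, so the pass in RNA is no independent support. Without KO 2 the RPF value was 0.35.

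Share here means the paralog's part of the summed level of its pair, with RNA taken per kilobase of transcript and footprints per kilobase of coding sequence. *Rpl3l* held 48.0%, 42.7% and 47.2% of the RNA of its pair in WT, a mean of 46.0% ± 2.9 (SD, n = 3). In WT footprints it held 73.7%, 68.1% and 70.0%, a mean of 70.6% ± 2.8 (SD, n = 3). Every WT footprint library thus lay above every WT RNA library (exact two-sided permutation p = 0.1, the smallest that 3 against 3 libraries allow). That test takes the libraries as independent. With same-numbered libraries taken as pairs, the exact sign-flip p was 0.25, the smallest that 3 pairs allow. In KO it held 6.04% ± 0.44 of the RNA and 6.05% ± 3.6 of the footprints (SD, n = 3 per group), and the groups overlapped. The KO footprint libraries were at 6.73%, 2.17% and 9.24%, with Wilson 95% intervals of 5.32% to 8.49%, 1.52% to 3.08% and 7.26% to 11.7%. The interval of KO 2 lay below the other 2, which overlapped. Intervals and floors cover counting error within a library only. The intervals would be too narrow where reads amplified from 1 molecule were counted more than once.

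The summed footprint level of the pair, per kilobase, went from 267 ± 49 CPM in WT to 129 ± 33 CPM in KO (SD, n = 3 in each group), a ratio of 0.482 with no overlap (exact two-sided permutation p = 0.1). In RNA the sum was 597 ± 56 and 532 ± 58 CPM per kilobase, a ratio of 0.892, and the groups overlapped (exact p = 0.2). The log2 change of footprints relative to RNA (translational efficiency, TE) was -1.63 (SE 0.35) for *Rpl3l* and 0.01 (SE 0.31) for *Rpl3*. With edgeR's adjusted p of 0.9997 neither passed, in a background of 0% called. *Rpl3l* passed in DESeq2 (-1.64, adjusted p = 0.030) and in edgeR without a filter (-1.59, adjusted p = 0.0056). Over all its alternatives the adjusted p ranged from 0.0056 to 0.9999.

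**Figure D2:**
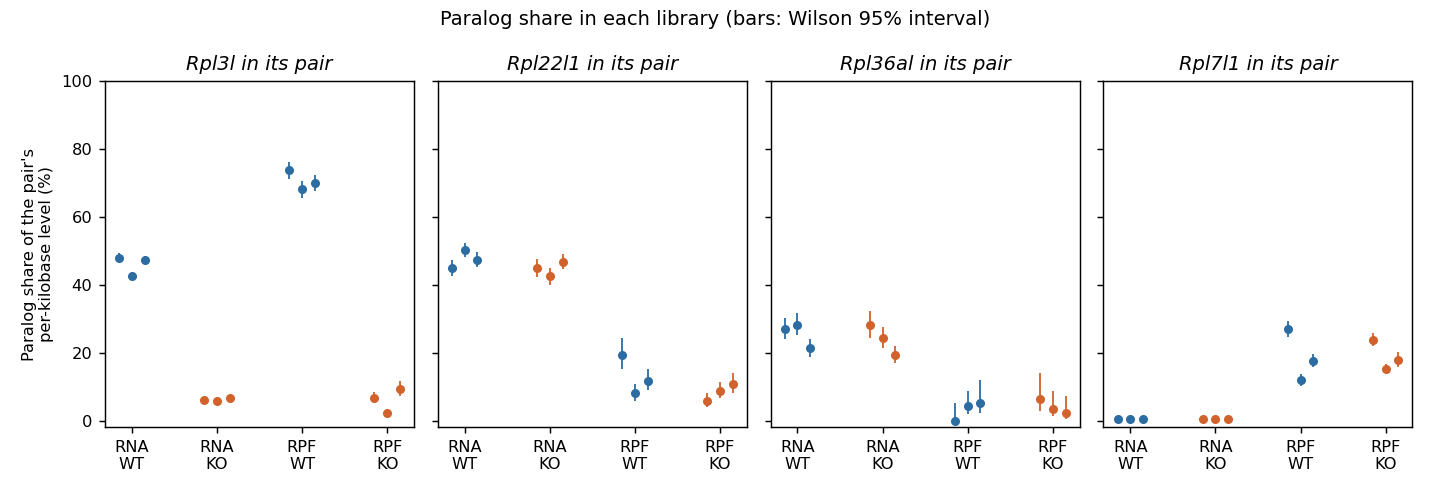
Paralog share of the per-kilobase level of its pair in percent, for each library of the 4 groups; points are libraries, bars Wilson 95% intervals from counts, blue WT and orange KO. *Rpl3l* lies at means of 46.0% of RNA and 70.6% of footprints in WT and at 6.04% and 6.05% in KO. For the other 3 pairs WT and KO overlap in both assays, and RNA differs from footprints at the lengths used here. With coding length in both assays RNA and footprints overlap for *Rpl22l1* in WT, and per unshared window the difference reverses for *Rpl36al*.

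In the *Rpl22* pair the per-kilobase shares in RNA and in footprints lay apart, in WT only with RNA taken per transcript length, and those of the genotypes overlapped. Rpl22-204 has 4 exons on the plus strand of chr4:152325867-152334071 and 2051 bases, of which 384 are coding. Rpl22l1-201 has 4 exons on the plus strand of chr3:28805436-28807415 and 552 bases, of which 366 are coding. *Rpl22* RNA was 371, 316 and 257 CPM in WT and 301, 358 and 273 CPM in KO. Its footprints were 50.2, 117 and 86.7 CPM in WT and 68.2, 86.2 and 80.3 CPM in KO. The genotypes overlapped in both assays, with log2 fold changes of -0.02 (SE 0.19) in RNA and -0.11 (SE 0.23) in RPF.

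*Rpl22l1* RNA was 81.4, 86.0 and 62.1 CPM in WT and 66.0, 71.0 and 64.6 CPM in KO, again overlapping (log2 fold change -0.19, SE 0.18). Its footprints were 11.5, 9.75 and 11 CPM in WT and 3.91, 7.92 and 9.22 CPM in KO, from 29 to 56 counts a library. All 3 KO libraries were below the WT libraries, the nearest at 9.22 against 9.75 CPM. The log2 fold change in RPF was -0.63 (SE 0.38) and did not pass (edgeR adjusted p = 0.849). Without KO 1 it was -0.33.

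Per kilobase, *Rpl22l1* held 47.5% ± 2.7 of the pair's RNA in WT hearts and 44.7% ± 2.2 in KO hearts (SD, n = 3 per group). Of footprints it held 19.4%, 8.06% and 11.7% in WT and 5.67%, 8.79% and 10.8% in KO. All 6 footprint libraries lay far below all 6 RNA libraries, with a difference in the log2 ratio of paralog to partner of -2.67 in WT and -3.17 in KO (exact two-sided permutation p = 0.1 for each). Part of that distance rests on length, since the *Rpl22* transcript is mostly untranslated sequence. With coding length in both assays, the RNA share came to 20.4% ± 1.7 for WT and 18.6% ± 1.3 for KO (SD, n = 3 per group), and the difference to -0.84 for WT and -1.35 for KO. On that scale RNA and footprints overlapped in WT (exact permutation p = 0.2) and not in KO (exact permutation p = 0.1). KO differed from WT by -0.16 in RNA and -0.67 in RPF on the log2 ratio (exact permutation p = 0.3 for both). Leaving out a library gave -0.24 to -0.083 in RNA and -1.01 (without WT 2) to -0.28 (without WT 1) in RPF.

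The *Rps27* pair gave no share, because *Rps27* was listed at 0 in all 12 libraries. Rps27-201 has 4 exons on the minus strand of chr3:90212671-90213651 and 345 bases, nearly all of them shared with *Rps27rt* (chr9:114982366-114982739), which was also listed at 0 throughout. *Rps27* encodes a core protein of the small subunit, so a 0 here gives no level. Its paralog, Rps27l-201, has 4 exons on the plus strand of chr9:66946086-66949512, shared no window, and was counted in all 12 libraries.

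*Rps27l* RNA was level between genotypes, at 70.8, 77.0 and 59.1 CPM in WT and 64.6, 74.1 and 68.4 CPM in KO (log2 fold change 0.00, SE 0.17). Footprints were 45.5, 22.4 and 36.0 CPM in WT and 52.8, 46.8 and 45.9 CPM in KO. All KO libraries were above the WT libraries, the nearest at 45.9 against 45.5 CPM. The RPF log2 fold change was 0.48 (SE 0.23), with an unadjusted p below 0.05 but an edgeR adjusted p of 0.834. It was 0.73 without WT 1, the library set apart in RPF (edgeR adjusted p = 0.499), and 0.26 without WT 2. The TE change was 0.50 (SE 0.30, edgeR adjusted p = 0.9997), and 0.73 without WT 1 and 0.18 without WT 2.

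Because *Rps27l* is a p53 target, 12 other p53 targets were read beside it. In RNA 5 were abundant enough to test, 0 were called, and their median log2 fold change was 0.14 against -0.01 for all names. *Mdm2*, which encodes the ligase that degrades p53, was 3.73, 3.25 and 5.03 CPM in WT and 6.94, 6.14 and 5.37 CPM in KO (log2 fold change 0.60, SE 0.25, edgeR adjusted p = 0.999). *Phlda3*, an inhibitor of Akt signalling, was 0.717, 1.30 and 1.15 CPM in WT and 2.07, 2.25 and 1.72 CPM in KO (0.89, SE 0.36, edgeR adjusted p = 0.999). In these 2 of the 5 the KO libraries were above the WT libraries, as in 4.14% of names, and the unadjusted p was below 0.05, as in 2.54% of names. *Phlda3* was so low in WT that it needed its KO libraries to meet the count filter. Its part in these counts and in the RNA median is therefore no independent evidence. The cell death gene *Bax* (0.14) and the cyclin gene *Ccng1* (-0.22) had smaller differences. In RPF all 12 were tested, 0 were called, 0 had an unadjusted p below 0.05, and the median was 0.06 against 0.00 for all names. The lowest there were *Tnfrsf10b* (-0.80) and *Sesn2* (-0.61), and the highest *Eda2r* (0.62) and *Trp53inp1* (0.53).

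**Figure D3:**
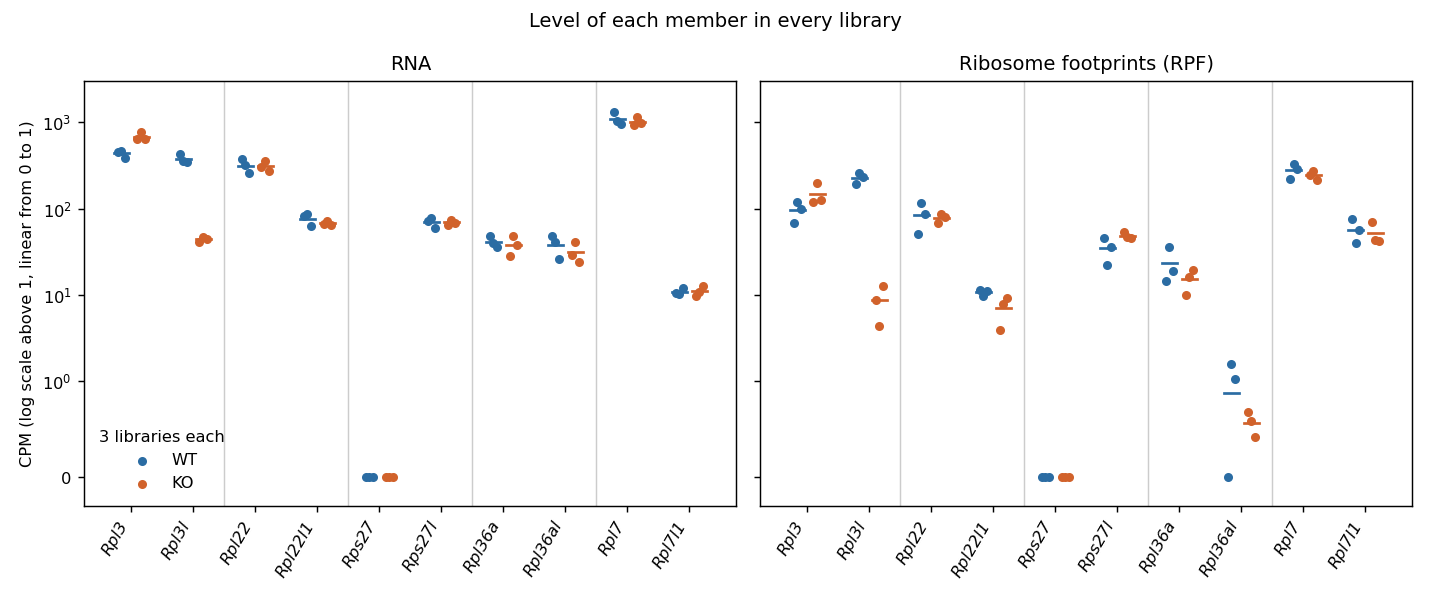
Level of each member in every library in CPM, on an axis that is logarithmic above 1 and linear from 0 to 1; points are libraries, short lines group means, blue WT and orange KO, RNA at left and footprints at right. *Rpl3l* is far lower in KO in both panels, *Rps27* lies at 0 throughout, and *Rpl36al* is at 24.1 to 47.6 CPM in RNA but at 0 to 1.58 CPM in footprints.

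The *Rpl36a* pair was counted in RNA, but *Rpl36al* was nearly uncounted in footprints. Rpl36a-201 has 5 exons on the plus strand of chrX:134585654-134588056, and Rpl36al-202 has 1 exon on the minus strand of chr12:69182738-69184013, with 318 coding bases in each. *Rpl36a* RNA was 48.6, 39.5 and 36.0 CPM in WT and 28.2, 47.6 and 38.2 CPM in KO. Its footprints were 14.6, 36.1 and 18.8 CPM in WT and 9.97, 16.1 and 19.5 CPM in KO. Genotypes overlapped in both assays (log2 fold change -0.12, SE 0.21, in RNA and -0.61, SE 0.34, in RPF; edgeR adjusted p = 0.999 and 0.835). Without WT 2 the RPF value was -0.14.

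*Rpl36al* RNA was 47.6, 41.2 and 25.8 CPM in WT and 29.1, 40.6 and 24.1 CPM in KO, overlapping (log2 fold change -0.29, SE 0.26). Leaving out a replicate gave values from -0.53 (without KO 2) to -0.10 (without WT 1). Its footprints were 0, 6 and 5 counts in WT and 5, 4 and 2 counts in KO, too few for the RPF test. The share of *Rpl36al* was 25.6% ± 3.7 in WT RNA and 23.9% ± 4.4 in KO RNA (SD, n = 3 each). With coding length in both assays it was 47.4% ± 5.0 in WT RNA and 45.2% ± 6.1 in KO RNA (SD, n = 3 each). In footprints it was 0%, 4.20% and 5.32% in WT and 6.33%, 3.51% and 2.11% in KO, where the 0 of 71 counts in WT 1 allows up to 5.13% (upper Wilson bound). Footprint libraries lay below RNA libraries in both genotypes (log2 difference -3.64 in WT and -2.85 in KO, exact permutation p = 0.1 each). When levels were taken per window that no other listed transcript shares, a setting chosen after seeing the data, these differences reversed to 0.18 and 0.98. On that scale the share in WT was 11.3% ± 1.9 in RNA and 13.9% ± 12 in footprints (SD, n = 3 each), and the lower footprint share of *Rpl36al* was no longer seen. KO differed from WT on the log2 ratio by -0.13 in RNA and 0.66 in RPF (exact permutation p = 0.6 and 0.7).

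In the *Rpl7* pair the paralog took a larger share of footprints than of RNA. Rpl7-201 has 7 exons on the minus strand of chr1:16101295-16104662 and 810 coding bases, and Rpl7l1-201 has 7 exons on the minus strand of chr17:46773907-46782656, with 738 coding bases in a transcript of 2606. *Rpl7* RNA was 1316, 1039 and 956 CPM in WT and 923, 1152 and 970.3 CPM in KO. *Rpl7l1* RNA was 10.6, 10.3 and 11.9 CPM in WT and 9.75, 10.8 and 12.6 CPM in KO. In footprints *Rpl7* stood at 221, 327 and 290 CPM in WT and 244, 269 and 214 CPM in KO. *Rpl7l1* footprints were 74.7, 40.1 and 56.5 CPM in WT and 69.5, 43.7 and 42.3 CPM in KO. This paralog thus had more footprint CPM than RNA CPM in both genotypes. So did the median of all names tested, with a log2 ratio of footprint to RNA CPM of 1.71 in WT and 1.72 in KO. All 4 comparisons of genotypes overlapped. The log2 fold changes were -0.12 (SE 0.19) in RNA and -0.20 (SE 0.15) in RPF for *Rpl7*, and 0.02 (SE 0.18) and -0.14 (SE 0.24) for *Rpl7l1*.

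*Rpl7l1* therefore held 0.451% ± 0.099 of the pair's RNA per kilobase in WT hearts and 0.486% ± 0.080 in KO hearts (SD, n = 3 per group). In footprints it held 27.0%, 11.8% and 17.6% in WT and 23.8%, 15.1% and 17.8% in KO. The log2 ratio of *Rpl7l1* to *Rpl7* was higher in footprints by 5.62 in WT and 5.56 in KO, with no overlap (exact permutation p = 0.1 each). With coding length in both assays the differences were 4.32 and 4.26, so the direction did not rest on the long untranslated part of the *Rpl7l1* transcript. KO differed from WT on the log2 ratio by 0.12 in RNA and 0.06 in RPF (exact permutation p = 0.7 and 0.9).

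Ribosomal protein mRNAs carry a 5′ terminal oligopyrimidine tract, by which their translation is held in check, and are often read by few ribosomes for their abundance. The ratio of RPF CPM to RNA CPM places the members among them, on a scale that also holds the large mitochondrial part of the RNA libraries. Its log2 value had a median of 1.71 over the 8044 names tested in both assays in WT and of -2.53 over 71 other cytosolic ribosomal protein genes. *Rpl3* (-2.18), *Rpl22* (-1.90), *Rpl22l1* (-2.83) and *Rpl7* (-1.98) lay near that second median. *Rpl36a* (-0.84), *Rpl3l* (-0.72) and *Rps27l* (-0.995) lay above most of it. Higher than *Rpl3l* in WT were 2 of the 71, *Rpl15* and *Rpl41*. *Rpl7l1*, at 2.38, was above all 71 and above the median of all names, with 37.0% of names higher.

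In KO, where few *Rpl3l* counts remained, its log2 ratio was -2.35 and 26 of the 71 genes were higher. The KO values were -2.20 for *Rpl3*, -1.99 for *Rpl22*, -3.26 for *Rpl22l1*, -0.51 for *Rps27l*, -1.32 for *Rpl36a*, -2.07 for *Rpl7* and 2.23 for *Rpl7l1*. The interaction of assay and genotype was tested for these 8 members and, with the count filter, passed for 0 of them in edgeR. At an unadjusted p below 0.05 it was *Rpl3l* alone, where 3.73% of names had such a p.

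**Figure D4:**
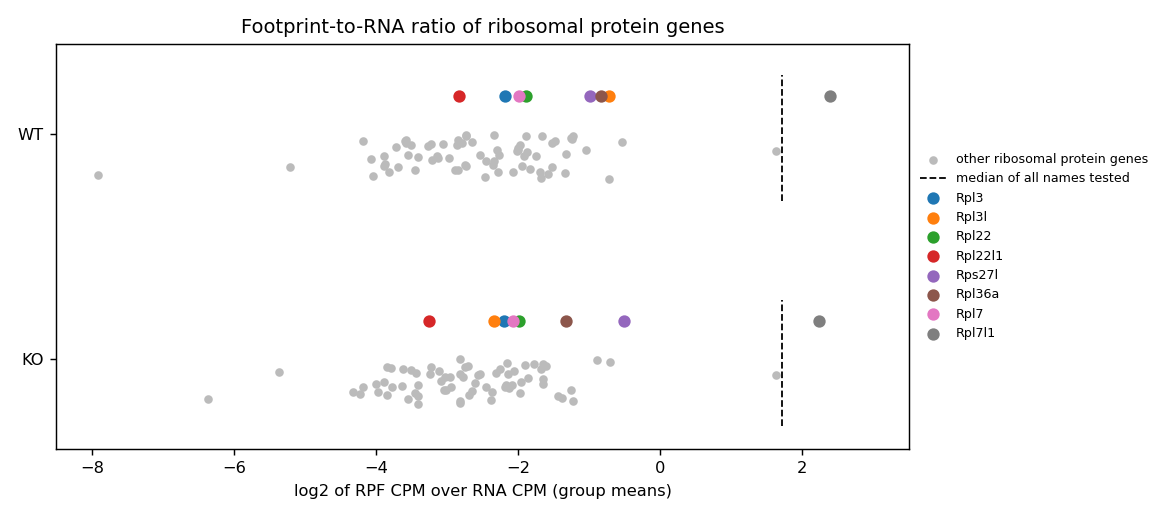
Log2 ratio of mean RPF CPM to mean RNA CPM in WT and KO; coloured points are the 8 members tested in both assays, grey points 71 other cytosolic ribosomal protein genes, the dashed line the median of the 8044 names tested. *Rpl7l1* lies at 2.38 in WT and 2.23 in KO, above all grey points, and *Rpl3l* moves from -0.72 in WT to -2.35 in KO.

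Among the members that could be tested, none outside the pair of *Rpl3* and *Rpl3l* passed a test between genotypes. *Rps27* could be tested in neither assay, and *Rpl36al* not in RPF or TE. Of 9 members tested in RNA, all KO libraries were above all WT libraries for 1, *Rpl3*, against 4.14% of names tested, and below for 1, *Rpl3l*, against 3.19%. Of 8 tested in RPF they were above for 2, *Rpl3* and *Rps27l*, against 6.27% of names, and below for 2, *Rpl3l* and *Rpl22l1*, against 5.77%. For *Rpl3* in RNA the nearest libraries were at 631 CPM in KO and 468 CPM in WT. In RPF, except for *Rpl3l*, the nearest libraries almost met. They were at 120.19 CPM in KO against 120.17 CPM in WT for *Rpl3* and 45.9 against 45.5 CPM for *Rps27l*. For *Rpl22l1* they were at 9.22 against 9.75 CPM. Apart from *Rpl3l*, 1 member in RNA (*Rpl3*) and 2 in RPF (*Rpl3* and *Rps27l*) had an unadjusted edgeR p below 0.05. Of the 8 share tests between genotypes, the groups did not overlap in 2, both of the *Rpl3* pair. With 3 libraries a group no share test, that of the *Rpl3* pair included, could give a p below 0.1. The edgeR p-values set a difference against the spread between libraries, and the exact p-values come from rearranging these libraries between groups.

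**Figure D5:**
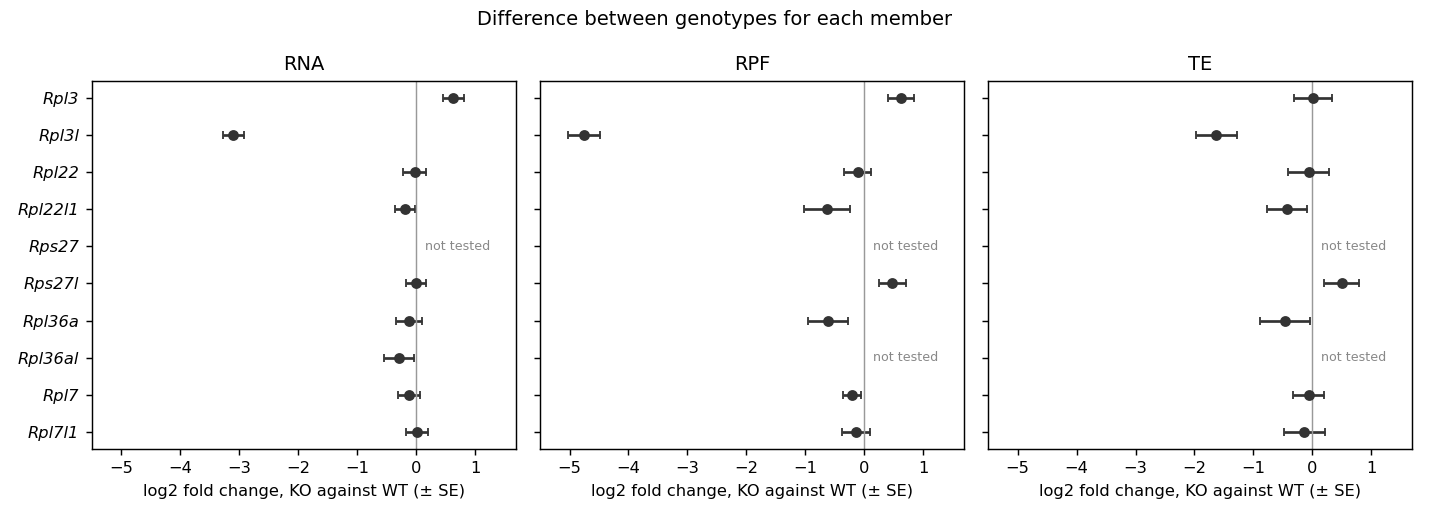
Log2 fold change, KO against WT, of each member in RNA, RPF and TE; points are edgeR estimates, bars ± 1 SE, and members below the count filter are marked as not tested. *Rpl3l* lies at -3.10, -4.76 and -1.63, *Rpl3* at 0.63, 0.62 and 0.01, and the other members lie between -0.63 and 0.50.

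The order of levels per kilobase in WT RNA was *Rpl7* (949 ± 162 CPM), *Rpl3* (322 ± 34), *Rpl3l* (274 ± 32), *Rpl22* (153 ± 28), *Rpl22l1* (139 ± 23), *Rps27l* (138 ± 18), *Rpl36a* (85.7 ± 13), *Rpl36al* (29.9 ± 8.8) and *Rpl7l1* (4.20 ± 0.34; SD, n = 3 each). The libraries of *Rpl3* and *Rpl3l*, of *Rpl22* and *Rpl22l1*, and of *Rpl22l1* and *Rps27l* overlapped, and the other neighbours did not. In WT footprints, per coding kilobase, the order was *Rpl7* (345 ± 66 CPM), *Rpl22* (220 ± 87), *Rpl3l* (187 ± 28), *Rps27l* (137 ± 46), *Rpl3* (79.2 ± 22), *Rpl7l1* (77.3 ± 23), *Rpl36a* (72.9 ± 36), *Rpl22l1* (29.4 ± 2.5) and *Rpl36al* (2.77 ± 2.5; SD, n = 3 each). Neighbours overlapped from *Rpl7* down to *Rpl36a*. In KO RNA *Rpl3l* took the seventh place at 32.0 ± 2.1 CPM per kilobase, overlapping *Rpl36al* (24.5 ± 6.6), and *Rpl3* the second at 500 ± 57 (SD, n = 3 each).

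The other cytosolic ribosomal protein genes were counted beside the members. In RNA 72 of 74 were tested, 0 were called by edgeR, and the median log2 fold change was -0.09, with 56 below 0, against a median of -0.01 over all 8379 names, of which 4268 were below 0. The extremes were *Rpl31* (-0.33), *Rpl41* (-0.31), *Rps24* (0.09) and *Rpl35* (0.26), whose products belong to the ribosome. In RPF 71 were tested, 0 were called, 7 had an unadjusted p below 0.05, each lower in KO, and the median was -0.22 with 63 below 0. Over all 11153 names tested in RPF, 360 had such a p and were lower, 5554 were below 0 and the median was 0.00. The lowest were *Rpl35* (-0.68) and *Rps18* (-0.65), and the highest *Rpl39* (0.28) and *Rps23* (1.44), the last with at most 3.67 CPM in a library. *Rpl10l* and *Rpl39l*, paralogs known from testis and other tissues, were too low to test in either assay.

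Likeness to the *Rpl3* pair was measured by Pearson's r of log2 CPM over the 12 libraries, after each gene's mean in each assay was subtracted. Among 8043 names, *Gk* (0.90), *Edrf1* (0.89) and *Casd1* (0.86) were most like *Rpl3*, and *Psmc3ip* (0.92), *Bckdha* (0.90) and *Fxyd1* (0.87) most like *Rpl3l*. *Rpl3* and *Rpl3l* themselves had an r of -0.78. The points share libraries and the genotype split, so these are descriptions.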

How the data were processed

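RNA and RPF libraries of left ventricle were compared, 3 per genotype and assay. The authors deposited raw counts, whole numbers per transcript name, and cutadapt 1.18 and Bowtie2 2.4.2 are named in the submitters' processing notes. The genome build, the region counted and the handling of reads with several matches are not given in the sources used here. Of 21669 names, 21428 matched GENCODE M21 (GRCm38), from which lengths, coordinates and sequences were taken. The members and lists were chosen with earlier results of these data known, and all 10 members are named, as are the 2 highest and 2 lowest tested genes of each list and the 3 genes most like *Rpl3* and *Rpl3l*.

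Each assay was fitted with edgeR 4.0.16 (R 4.3.3): filterByExpr with a minimum count of 10, TMM, the quasi-likelihood F test and Benjamini-Hochberg adjustment over all names with a threshold of 0.05. TE was the assay by genotype interaction over 12 libraries. The fits were tested on simulated counts. Shares were compared on log2 ratios with 0.5 counts added by exact permutation of libraries, 8 tests between genotypes and 8 between assays; the *Rps27* pair gave none. Principal components and likeness used log2(CPM + 0.5). Alternatives were other scalings, DESeq2 1.42.0, no filter, removed top names, a replicate block, a factor for the RNA split, other lengths and leaving out each library. The RNA split was the sign of the first principal component of the RNA libraries.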

Additional observations from a re-analysis of the deposited data

How the results depend on the processing

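The fall of *Rpl3l* in RNA and RPF passed under every alternative run, and the share of *Rpl3l* kept its direction between genotypes. Over all alternatives, 269 of 309 member log2 fold changes kept direction and call. Of share differences on the log2 ratio, for which no p below 0.1 is possible, 74 of 80 between genotypes and 77 of 80 between assays kept their direction. Some of these could not turn. Between genotypes the length cancels, so other lengths give the same difference, and in both kinds of comparison the replicate block leaves the mean difference unchanged. Scaling to the other ribosomal protein genes moved the median of all names in RPF by 0.15. Names called in RNA went from 1 to 4 without a filter and 6 with the split factor. In RPF they went from 1 to 6 with ribosomal protein scaling, 5 in DESeq2 and 60 without a filter, and leaving out a replicate gave 1 to 2 (2 without WT 2 and without WT 3). In TE they went from 0 to 1 in DESeq2 and 3 without a filter. No causes were tested.

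Directions turned for members that had not passed. *Rps27l* in RNA was -0.0058 with median-of-ratios scaling, -0.0056 in DESeq2 and -0.0038 without a filter. With ribosomal protein scaling *Rpl22* was 0.067 in RNA, 0.15 in RPF and 0.082 in TE, and *Rpl7* in TE was 0.031. With the split factor *Rpl22* was 0.11, *Rpl36a* 0.0035 and *Rpl7l1* -0.023 in RNA. *Rpl3* in TE was -0.0045 with median-of-ratios scaling and -0.0043 in DESeq2. Per unshared window, the log2 ratio of *Rpl36al* to *Rpl36a*, footprints minus RNA, was 0.18 in WT and 0.98 in KO.

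Leaving out a replicate gave these ranges of log2 fold change. In RNA they were -0.15 to 0.12 for *Rpl22*, -0.10 to 0.087 for *Rps27l*, -0.32 to 0.049 for *Rpl36a*, -0.23 to 0.026 for *Rpl7* and -0.095 to 0.089 for *Rpl7l1*. In RPF they were -0.38 to 0.19 for *Rpl22* and -0.41 to 0.11 for *Rpl7l1*. In TE they were -0.21 to 0.15 for *Rpl3*, -0.46 to 0.23 for *Rpl22*, -0.84 to 0.022 for *Rpl36a*, -0.34 to 0.11 for *Rpl7* and -0.48 to 0.14 for *Rpl7l1*. Genotype differences in the log2 ratio of paralog to partner were -0.30 to 0.058 (RNA) and -0.32 to 1.25 (RPF) for *Rpl36al*. For *Rpl7l1* they were -0.032 to 0.28 (RNA) and -0.29 to 0.44 (RPF). The log2 ratio of *Rpl3l* to *Rpl3* in KO, footprints minus RNA, ranged from -0.67 to 0.43, the highest without RPF KO 2.

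The labels give WT and KO libraries the same numbers without saying that a number marks a pair. Deviations of same-numbered RNA libraries correlated across names at -0.20, 0.36 and 0.41, and of RPF libraries at 0.062, 0.028 and 0.0041. Differently numbered RNA libraries ranged from -0.56 (WT 3 with KO 2) to 0.36 (WT 1 with KO 2). Differently numbered RPF libraries ranged from -0.081 to 0.077, so the same number did not stand apart. With the replicate block 1 name was called in RNA, 4 in RPF and 0 in TE, and *Rpl3l* was the 1 member among them in RNA and in RPF. In the pairing of RNA with RPF, each of the 6 libraries correlated best with its own number, at 0.076 to 0.15. The permutation tests of shares between assays took these libraries as independent, which the correlations leave in doubt. An exact sign-flip test over 3 pairs cannot go below 0.25.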
